A study of Mus musculus with 6 samples.

Results

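The regions described here are H3K4me3 peaks of proliferating neural stem cell cultures that lay over an H3K27me3 peak both before and during differentiation, called co-marked peaks, or members, below. They were taken as the H3K4me3 peaks on chromosomes 1 to 19 that overlapped by at least 1 bp a peak of the proliferating H3K27me3 list and also a peak of the 30 h H3K27me3 list. There were 1871 of them among 18037 H3K4me3 peaks on these chromosomes and 18727 in all, so that 10.4% of the peaks on chromosomes 1 to 19 were co-marked. Since these 3 lists chose the members, the overlap itself is a description and supports nothing, and no test was run on it.

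H3K4me3 is a histone modification found at the start sites of active genes, and H3K27me3 is the repressive modification placed by EZH2, the methyltransferase of Polycomb repressive complex 2. In stem cells, regions that carry both are called bivalent. They are known from genes of developmental regulators, which are held silent or at a low level and can later be activated or lose the activating mark. The cells studied came from the SVZ, the subventricular zone along the lateral ventricles, whose neural stem cells keep making neurons after birth.

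The ChIP-seq libraries came from monolayer cultures of SVZ derived neural stem cells of C57BL/6 mice at passages 5 to 7, which were grown from early postnatal tissue. No mutation or treatment is named for them. H3K27me3 was measured in proliferating cultures and in differentiating ones at 30 h, differentiation being, by the study's methods, a change to medium with less serum and without EGF and bFGF, and H3K4me3 was measured in proliferating cultures only. Only the H3K4me3 culture is labelled ventral, so that the marks may come from different cultures, and overlapping peaks do not show that the marks lie in the same cells. There was 1 library per mark and time, and no difference between times or marks has a replicate check. The lists hold positions and scores but no read counts, so the depth is unknown. Depth and calling threshold also set which peaks are listed and how wide they are, and their part in any difference between the H3K27me3 lists was not tested. The lists name no genes, and gene positions in their build, mm9, were not used here. Peaks are therefore given by coordinates, and the cultures could not be checked against marker genes.

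As H3K4me3 peaks, the co-marked peaks were narrow and of low to middle score. Their width ran from 374 to 8056 bp with a median of 1454 bp and quartiles of 1132.5 and 1974 bp. H3K4me3 peaks that met neither H3K27me3 list (n = 15274) had a median width of 2074.5 bp, those that met it at 30 h only (n = 755) 1535 bp, and those that met it in the proliferating list only (n = 137) 1798 bp. The score, the value MACS gave each peak, had a median of 608 among co-marked peaks. It was 1055 among peaks that met H3K27me3 at 30 h only, 1239 among those that met it in the proliferating list only, and 3100 among those that met neither list. A score of 3100 or more, the level at which the lists pile up, was held by 193 co-marked peaks (10.3%, 95% Wilson interval 9.02 to 11.8%) and by 52.8% of the peaks that met neither list (52.0 to 53.6%). These and all intervals below cover counting error only.

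The share of co-marked peaks did not simply fall with H3K4me3 strength but was highest in the middle of the range. It was 14.5% among H3K4me3 peaks with a score under 100, 17.9% from 100 to 300, 23.2% from 300 to 1000 (21.5 to 24.99%), 15.1% from 1000 to 3100 and 2.27% at 3100 or more (1.98 to 2.61%). By width it was 12.1% for peaks up to 1 kb, 20.5% from 1 to 1.5 kb, 12.9% from 1.5 to 2 kb, 5.61% from 2 to 3 kb and 3.99% over 3 kb. The lower share among wide peaks was not seen within any range of score that spans several widths. Among peaks with a score of 1000 to 3100, 12.6% were co-marked at 1 to 1.5 kb, 13.0% at 1.5 to 2 kb, 18.1% at 2 to 3 kb and 33.3% over 3 kb (40 of 120, 25.5 to 42.2%). At 3100 or more the share stayed between 1.96 and 2.52% in the 3 width ranges over 1.5 kb. Within each score range below 3100 the co-marked peaks were slightly wider than the peaks that met neither list, for example with medians of 1452 against 1390 bp at 300 to 1000 and 1934 against 1828.5 bp at 1000 to 3100, while at 3100 or more the medians were 2588 and 2644 bp. The narrow width of the co-marked peaks as a group thus went together with their low scores.

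**Figure D1:**
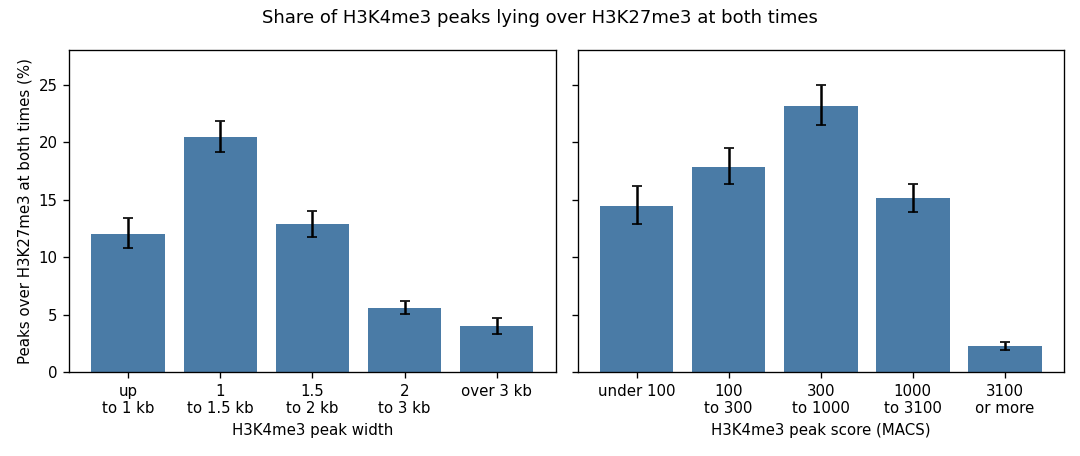
Share of H3K4me3 peaks on chromosomes 1 to 19 that lay over H3K27me3 at both times (y axis, percent), by H3K4me3 peak width (left) and by H3K4me3 score (right), with 95% Wilson intervals and 1 library per mark and time. The share was highest at 1 to 1.5 kb (20.5%) and at scores of 300 to 1000 (23.2%), and lowest at 3100 or more (2.27%).

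H3K27me3 mostly covered the co-marked peaks rather than touching them. In the proliferating list 1209 of 1871 (64.6%, 62.4 to 66.8%) were covered over their whole length, 472 (25.2%) were covered at the middle but not throughout, and 190 (10.2%) were not covered at the middle. At 30 h these counts were 1383 (73.9%, 71.9 to 75.9%), 343 (18.3%) and 145 (7.75%). Without the array of 47 co-marked peaks on chromosome 8 described below, 63.7 and 73.2% were wholly covered. The mean covered share of a co-marked peak was 87.2% in the proliferating list and 91.0% at 30 h. Single peaks moved in both directions. Coverage was higher at 30 h for 500, equal for 1147 and lower for 224. The 1147 were wholly covered at both times, so their coverage could not rise. The 30 h list as a whole covered 72.09 Mb of these chromosomes, against 27.97 Mb for the proliferating list. No share over other H3K4me3 peaks stands beside these counts. Of the 190 that were not covered at the middle in proliferating cultures, 35 were covered throughout at 30 h and 48 at the middle but not throughout, while 107 were again not covered at the middle. In the other direction, 6 of the 1209 that were wholly covered in proliferating cultures were not covered at the middle at 30 h.

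Coverage fell steadily with the strength of H3K4me3. Of the 253 co-marked peaks with a score under 100, 89.7% were wholly covered in proliferating cultures and 92.5% at 30 h. Of the 494 with a score of 1000 to 3100, these shares were 44.9 and 61.1%. Of the 193 at 3100 or more, they were 15.5% (11.1 to 21.3%) and 23.3% (17.9 to 29.8%), and 86 of the 193 (44.6%) were not covered at the middle in proliferating cultures. Wider peaks have more length to cover, but the fall was also seen at 1 width. Among co-marked peaks of 2 to 3 kb, 70.8% of the 48 with scores of 300 to 1000 were wholly covered in proliferating cultures, against 43.6% of 172 at 1000 to 3100 and 13.5% of 104 at 3100 or more. At 30 h the same order held, with 77.1, 57.0 and 22.1%. The width of the H3K27me3 peaks was not held constant in this. The widest one over a member had a median of 4944 bp under an H3K4me3 score of 100 and 3046 bp at 3100 or more in proliferating cultures. At 30 h these medians were 9463 and 5524 bp. Over all co-marked peaks the rank correlation of H3K4me3 score with proliferating coverage was -0.50 (Spearman, n = 1871 peaks of the same libraries, given as a description). The strongest H3K4me3 peaks of the group thus were seldom covered throughout, and the weak ones mostly lay inside an H3K27me3 peak.

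**Figure D2:**
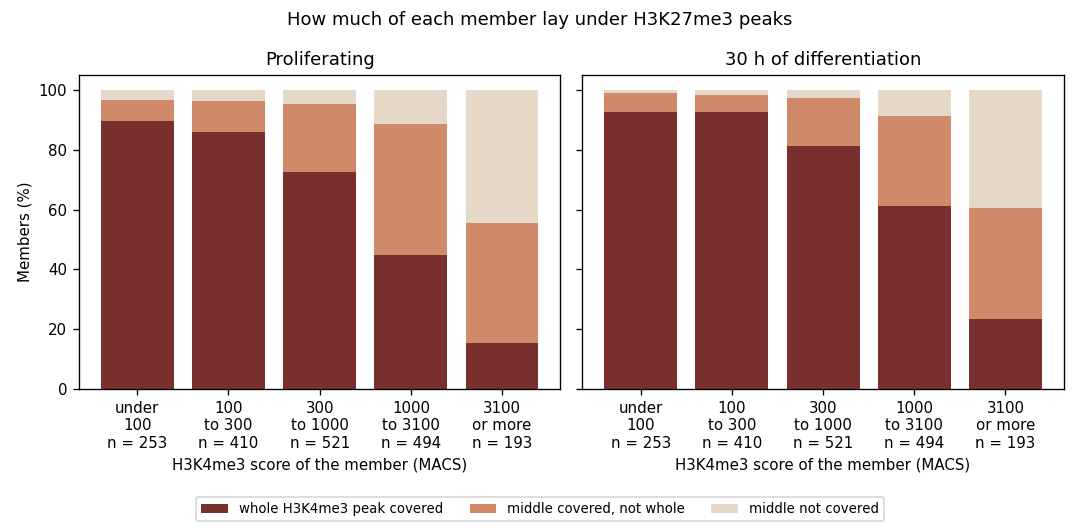
Co-marked peaks (y axis, percent) by how they were covered by H3K27me3 peaks in proliferating cultures (left) and at 30 h (right), grouped by H3K4me3 score (x axis, n below each bar), with 1 library per mark and time. The wholly covered share fell from 89.7% under a score of 100 to 15.5% at 3100 or more in proliferating cultures, and from 92.5% to 23.3% at 30 h.

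The H3K27me3 peaks over the co-marked peaks were wide and strong for their lists. The widest H3K27me3 peak over a co-marked peak is called its host here. The proliferating hosts numbered 1604, or 17.8% of the 9013 proliferating H3K27me3 peaks on these chromosomes, but held 33.0% of their covered length (9.23 of 27.97 Mb). Their median width was 3429.5 bp with quartiles of 2314 and 5994 bp, against a median of 1948 bp for the other proliferating H3K27me3 peaks. Their median score was 318 against 79.8. The other peaks were not chosen alike, since only 5642 of the 9013 met a 30 h peak, whereas the rule asks for both lists. Among those 5642, the peaks that met a co-marked peak (n = 1660) had a median width of 3374.5 bp and a median score of 308. Those without H3K4me3 (n = 3972) had medians of 2259 bp and 103. No like set was taken for the 30 h hosts. At 30 h the 1552 hosts were 10.4% of 14871 peaks and held 21.2% of the covered length, with a median width of 6121.5 bp against 3092 bp, and a median score of 834 against 138. Among proliferating H3K27me3 peaks, the share that met a co-marked peak rose with width, from 4.36% up to 1.5 kb to 33.9% at 3 to 5 kb, 49.1% at 5 to 10 kb and 67.4% over 10 kb (201 of 298, 61.9 to 72.5%). A wider peak has more room to meet an H3K4me3 peak, and this was not corrected for. H3K27me3 and H3K4me3 strength did not go together within the group. Both hosts had a score of 3100 or more at 321 co-marked peaks (17.2%), and only 15 of these had an H3K4me3 score as high. Without the array, the co-marked peaks with both hosts at that level numbered 274 and had a median H3K4me3 score of 303, against 783 for the 1300 with neither host at that level.

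Over most co-marked peaks the H3K27me3 peak was wider at 30 h. The host width over a co-marked peak had a median of 3848 bp in proliferating cultures and 7137 bp at 30 h. The 30 h host was wider at 1734 of 1871 (92.7%) and narrower at 137. Among all 5642 proliferating H3K27me3 peaks that met a 30 h peak, the 30 h peak was narrower for 5.12%. The median ratio of 30 h to proliferating width was 1.54 (95% interval from order statistics 1.51 to 1.58), with quartiles of 1.20 and 2.15, and 1.56 without the array. It exceeded 1.5 at 993 co-marked peaks (53.1%) and 3 at 232 (12.4%). For the 3972 proliferating H3K27me3 peaks without H3K4me3 that met a 30 h peak, its upper quartile was 5.28, so ratios over 3 were more frequent there. Over all 5642 proliferating H3K27me3 peaks that met a 30 h peak, with or without H3K4me3, the 30 h peak was wider for 94.9% and more than 1.5 times wider for 73.0%. These shares count each H3K27me3 peak once, whereas those over co-marked peaks count a shared host several times. Counted per H3K27me3 peak, they were 93.1% and 56.5% for the 1660 that met a co-marked peak. Widening was thus seen across these peaks as a whole and was no more frequent over the co-marked peaks. The outer edge of the host lay farther out at 30 h on both sides for 1361 co-marked peaks (72.7%), on 1 side for 466 (24.9%) and on neither side for 44 (2.35%). These edge counts are given for co-marked peaks only and have no share over other peaks beside them. The stretch of H3K27me3 beyond the H3K4me3 peak had a median of 1197 bp on the side of lower coordinates and 1126 bp on the other in proliferating cultures, and of 2736 and 2529 bp at 30 h. The sides thus gave like values. The order of the hosts by width was largely kept between the times (Spearman rho 0.80, n = 1871 co-marked peaks, of which many share a host).

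**Figure D3:**
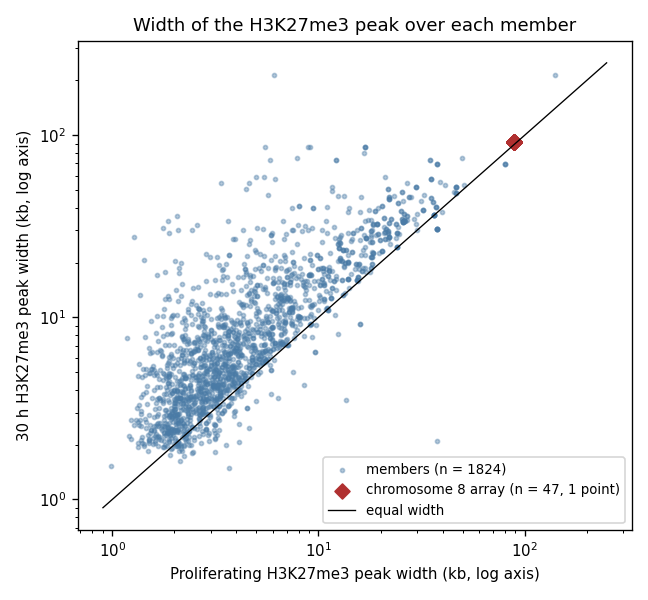
Width of the widest H3K27me3 peak over each co-marked peak in proliferating cultures (x axis, kb, log axis) and at 30 h (y axis, kb, log axis), 1 point per co-marked peak and 1 library per time. Most points, 1734 of 1871, lie above the line of equal width; the array of 47 peaks on chromosome 8 is a single point near the line.

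Proliferating H3K27me3 peaks that met a co-marked peak (n = 1660, hosts and second peaks together) widened less than those that met no H3K4me3 peak (n = 3972), with a median ratio of 1.61 (1.56 to 1.66) against 2.86 (2.77 to 2.94). The 30 h peak was more than 1.5 times wider for 56.5% and 80.1% of them. Peaks without H3K4me3 were weaker, with a median score of 103 against 308, and the difference between the kinds depended on the score. With a proliferating score under 100 the median ratio was 1.87 for peaks over a co-marked peak and 3.51 for peaks without H3K4me3. At 100 to 300 the ratios were 1.58 and 2.64, at 300 to 1000 they were 1.64 and 1.91, at 1000 to 3100 they were 1.60 and 1.64, and at 3100 or more they were 1.41 and 1.29, with overlapping intervals of the medians in both ranges from 1000 up. Grouped by proliferating width instead, the median was lower over co-marked peaks in every range. At 5 to 10 kb it was 1.67 (1.53 to 1.78) against 2.08 (1.90 to 2.47). Over 10 kb it was 1.44 (1.37 to 1.53) against 1.60 (1.43 to 1.83), the only width range with overlapping intervals.

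The difference was smaller where 30 h peaks that ran over several proliferating peaks were left out. Where 1 proliferating peak met 1 30 h peak and the latter met no other, the median ratio was 1.46 (1.42 to 1.499) for 1213 peaks over a co-marked peak and 1.87 (1.81 to 1.93) for 2208 without H3K4me3. In these pairs the order of the medians turned with the score. They were 1.62 against 2.30 under 100 and 1.499 against 1.67 at 100 to 300, but 1.44 against 1.33 at 300 to 1000, 1.33 against 1.17 at 1000 to 3100 and 1.20 against 1.12 at 3100 or more. The intervals of both medians overlapped in the ranges from 300 to 1000 (1.38 to 1.502 and 1.28 to 1.40), from 1000 to 3100 (1.25 to 1.42 and 1.09 to 1.29) and at 3100 or more (1.17 to 1.26 and 1.02 to 1.23). Grouped by score, H3K27me3 peaks over co-marked peaks thus had lower width ratios than peaks without H3K4me3 below 300 in both sets. From 1000 up the intervals overlapped in both. Grouped by width, over all peaks met at 30 h, the ratios were lower in every range. The difference itself was not tested. The kinds were not chosen alike, because a peak over a co-marked peak had to meet the 30 h list at the H3K4me3 peak itself, whereas a peak without H3K4me3 could meet it anywhere.

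**Figure D4:**
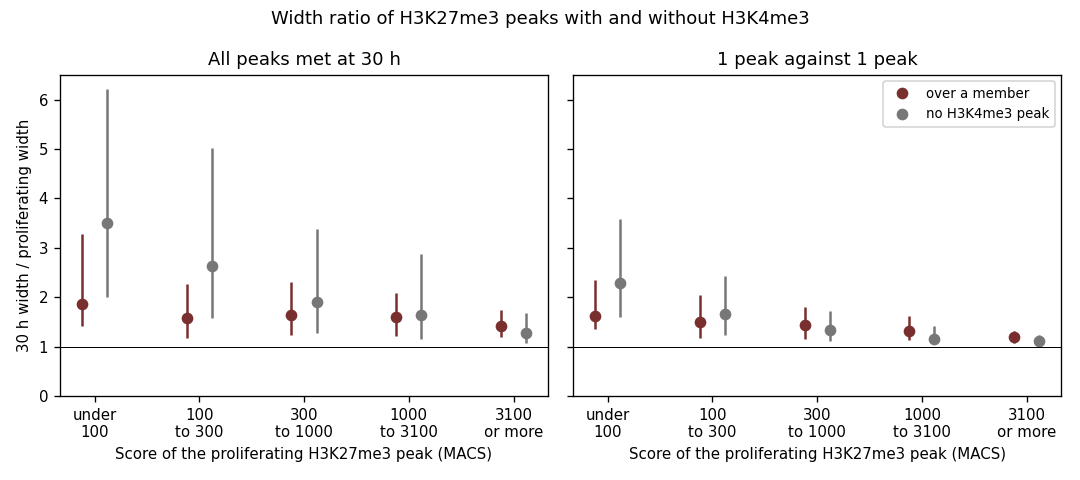
Ratio of 30 h to proliferating H3K27me3 peak width (y axis) by the score of the proliferating peak (x axis), for peaks over a co-marked peak and peaks without H3K4me3. Points are medians over peaks and lines run from the lower to the upper quartile, with all peaks met at 30 h on the left (1.87 against 3.51 under a score of 100) and pairs of 1 peak with 1 peak on the right (1.62 against 2.30).

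Most co-marked peaks, 1737, met exactly 1 H3K27me3 peak in each list. In the proliferating list 65 met 2 H3K27me3 peaks, and 33 of these were spanned by 1 peak at 30 h. At 30 h 101 met 2 H3K27me3 peaks, of which 69 had met 1 in the proliferating list. At 51 of the 1552 30 h hosts, the co-marked peaks underneath lay in 2 or more proliferating hosts, at most 4, and these 30 h hosts held 133 co-marked peaks. The reverse was found at 6 of the 1604 proliferating hosts. These counts cover only hosts that hold members. Joining with any proliferating peak was more frequent, since of 1610 proliferating peaks over a co-marked peak that met 1 30 h peak, 1213 met one that reached no other proliferating peak. Among peaks without H3K4me3 the same held for 2208 of 3864, so joining was more frequent there than over co-marked peaks. These peaks without H3K4me3 were weaker, with a median score of 102 against 308, and joining was not compared within ranges of score. The difference was not tested.

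Within wide hosts the middle of most co-marked peaks fell in the central 50% of the host. Where the host was at least 5 times wider than the H3K4me3 peak, the middle of the H3K4me3 peak fell in the central 50% of the host at 306 of 524 co-marked peaks in proliferating cultures (58.4%, 54.1 to 62.5%) and at 593 of 908 at 30 h (65.3%, 62.2 to 68.3%). The median distance of that middle from the nearer host edge was 28.3% of the host width and 32.2%. A peak that lies inside its host cannot have its middle at the edge. This raises the central share above 50% without any preference for the centre, and it was not corrected for. The shares therefore do not show whether the co-marked peaks lean toward the centre. At 81 and 127 of these co-marked peaks the middle lay within 10% of the host width from an edge or beyond it.

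The co-marked share varied between chromosomes. Outside chromosome 8 it ran from 6.61% on chromosome 16 (38 of 575, 4.85 to 8.94%) to 11.1% on chromosome 6 (104 of 934, 9.27 to 13.3%). On chromosome 16 and on chromosome 3 (8.03%, 6.45 to 9.95%) the interval lay below the share of 10.4% over chromosomes 1 to 19. That share includes the array on chromosome 8. The difference was not tested, and these chromosomes were picked from 19 with no correction for their number. The intervals also treat neighbouring peaks as independent. Chromosome 8 stood at 14.8% (151 of 1023), and at 10.7% without the array described next. Co-marked peaks were close to another H3K4me3 peak more often than peaks that met H3K27me3 at 30 h only or not at all. The nearest other H3K4me3 peak, co-marked or not, was under 5 kb away for 27.6% of co-marked peaks (25.7 to 29.7%), 25.8% without the array (23.8 to 27.8%), 15.4% of those that met H3K27me3 at 30 h only (13.0 to 18.1%) and 18.6% of those that met neither list (18.0 to 19.2%). For peaks that met it in the proliferating list only it was 21.2% (15.2 to 28.7%), an interval that overlaps that of the co-marked peaks. With co-marked peaks less than 10 kb apart joined into runs, 1354 stood alone and 517 formed 205 runs, of which 14 held more than 3. Most hosts held a single co-marked peak, namely 1427 of 1604 in proliferating cultures and 1350 of 1552 at 30 h.

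The longest run was an array of 47 co-marked peaks on chromosome 8 from 126062156 to 126148350, all under 1 H3K27me3 peak in each list. The proliferating host ran from 126060802 to 126149287 (88.5 kb) and the 30 h host from 126060536 to 126152215 (91.7 kb), both with a score of 3100. The H3K4me3 peaks were alike, with widths of 965 to 1505 bp (median 1235 bp) and low scores of 51.7 to 185 (median 107). All 47 were wholly covered by H3K27me3 at both times. They were also evenly spaced. Of the 46 distances between neighbouring starts, 42 were under 2.5 kb, from 1463 to 1951 bp with a median of 1712.5 bp and an SD of 124 bp. The other 4 were between 3348 and 3526 bp with a median of 3409.5 bp, 1.99 times the median of the short ones. The input libraries were not used here, so whether this region stands out without an antibody was not checked. The array made up 2.51% of the co-marked peaks.

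**Figure D5:**
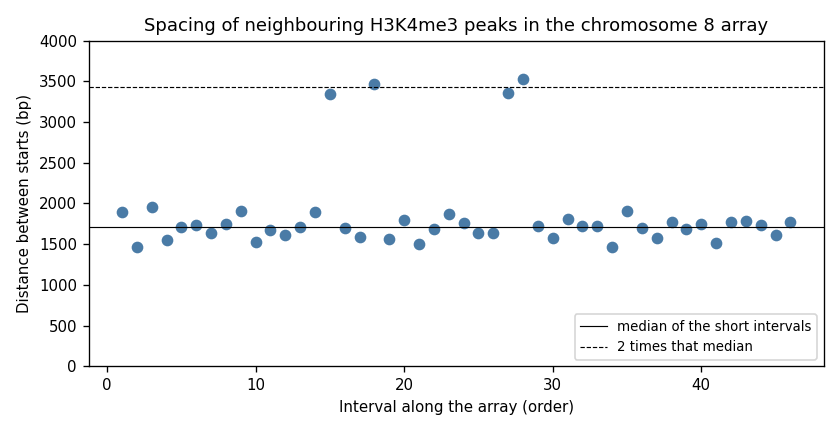
Distance between the starts of neighbouring H3K4me3 peaks (y axis, bp) in the order of the 46 intervals along the array on chromosome 8 (x axis), 1 library. Of the points, 42 lie around the solid line at their median of 1712.5 bp and 4 near the dashed line at 2 times that median.

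The next runs held 7 co-marked peaks each and lay side by side on chromosome 6, from 47600322 to 47637155 and from 47686933 to 47723497. They were unlike the array. Their H3K4me3 peaks were wide, with medians of 3927 and 3802 bp, and strong, with median scores of 2420 and 2514. The proliferating hosts, 36.5 and 37.4 kb wide with scores of 3100, ended close to the outermost H3K4me3 peaks. At 30 h the first block kept its host at 36.6 kb, whereas the host of the second was 30.4 kb wide and ended within the sixth H3K4me3 peak. The last 2 H3K4me3 peaks were covered at 90.9 and 77.8%, mostly by further H3K27me3 peaks. The last, from 47721415 to 47723497, had the lowest ratio of 30 h to proliferating host width of all co-marked peaks, 0.0561, since it lay under a 37.4 kb peak in the proliferating list and under a 2.10 kb peak with a score of 334 at 30 h. The fourth run, on chromosome 12 from 57620164 to 57642313, held 5 co-marked peaks under a proliferating host of 25.6 kb and a 30 h host of 33.5 kb, and its H3K4me3 scores ran from 53.4 to 3100. In these 3 blocks wide H3K4me3 peaks with scores of 3100 lay under wide H3K27me3 peaks with scores as high. As for the array, whether these regions stand out without an antibody was not checked.

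The same loci held 4 of the 5 widest co-marked peaks. The widest, on chromosome 6 from 47629100 to 47637155 (8.06 kb), had an H3K4me3 score of 3100 and was wholly covered at both times under hosts with scores of 3100. The second, on chromosome 6 at 47693256 to 47701277, measured 8.02 kb and the next, on chromosome 12 at 57631184 to 57639100, measured 7.92 kb, both likewise wholly covered at both times, and the fifth was on chromosome 6 from 47612774 to 47619960 (7.19 kb). The fourth, on chromosome 19 from 59239023 to 59246881 (7.86 kb), was of another kind. Its H3K4me3 score was 3100, but its hosts were narrower than itself, 3.50 kb with a score of 256 in proliferating cultures and 3.10 kb with a score of 243 at 30 h, and H3K27me3 covered 44.5 and 49.96% of it.

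Under 4 of the 5 widest H3K27me3 hosts the H3K4me3 peaks were small. The widest proliferating host, on chromosome 15 from 102737267 to 102876982 (139.7 kb), held 1 co-marked peak, from 102829219 to 102830340, which was 1.12 kb wide with an H3K4me3 score of 193. At 30 h its host was 213.1 kb wide. After the host of the array followed an 80.5 kb host on chromosome 6 from 52141772 to 52222283 with 3 co-marked peaks. The widest of these, from 52141501 to 52142748, had an H3K4me3 score of 373, stuck out of the host's edge, and was covered at 78.3% and at 77.6% at 30 h under a host of 69.1 kb. A 50.7 kb host on chromosome 8 from 19740892 to 19791562 held 1 co-marked peak of 4.04 kb with an H3K4me3 score of 3100 and was 53.3 kb wide at 30 h. A 49.8 kb host on chromosome 2 from 74543703 to 74593463 held 1 of 0.928 kb with a score of 157 and was 75.1 kb wide at 30 h. Of these 5 hosts, 4 were wider at 30 h and the one on chromosome 6 was narrower.

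Members with the highest H3K27me3 scores in both lists could not be ranked, because 321 share the level of 3100 or more. Ranked by the lower of both ranks and, within ties, by position, with only the first member of each proliferating host kept, the first 5 lay on chromosome 1. They started at 57033628, 63319449, 74928498, 78190180 and 89052161 and had H3K4me3 widths of 0.820 to 1.40 kb and H3K4me3 scores of 84.8, 245, 182, 79.2 and 58.6. Their proliferating hosts were 11.4, 29.7, 21.8, 37.6 and 7.34 kb wide, and their 30 h hosts 16.1, 32.5, 50.4, 69.1 and 9.34 kb. All 5 hosts were wider at 30 h, by ratios of 1.09 to 2.31, and 4 of the 5 H3K4me3 peaks were wholly covered at both times.

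The largest rises in host width were at co-marked peaks that lay under a far wider H3K27me3 peak at 30 h. On chromosome 15 the co-marked peak from 102932209 to 102933213 had a proliferating host of 6.06 kb and lay at 30 h under the same 213.1 kb peak as above, a ratio of 35.1. On chromosome 3 the co-marked peak from 87607723 to 87608808 went from a host of 1.28 kb with a score of 62.0 to one of 27.6 kb with a score of 3100. On chromosome 1 the one from 74981594 to 74982593 went from 1.87 kb with a score of 76.4 to 34.0 kb with a score of 3100. After the peak on chromosome 6 given above, the lowest ratio was on chromosome 4 from 151504784 to 151506119, where the host shrank from 13.7 kb in proliferating cultures to 3.52 kb at 30 h. The next, on chromosome 7 at 51565489 to 51566815, had hosts of 3.70 and 1.49 kb. These 6 were chosen after their values were seen.

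At the limit of the rule, the smallest overlap among the members was 3 bp with the proliferating list, on chromosome 5 from 137040671 to 137045530, where the 30 h overlap was 756 bp. The next 4 overlapped by 11 to 26 bp the list they met least. Just outside, the closest H3K4me3 peaks missed the proliferating list by 12, 21, 31 and 38 bp while overlapping a 30 h peak, and the next missed the proliferating list by 55 bp and the 30 h list by 63 bp. In these 10 peaks the H3K4me3 scores ran from 309 to 3100. The peaks on either side of the limit were thus placed nearly alike.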

How the data were processed

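H3K27me3 ChIP-seq peaks (proliferating and 30 h) and H3K4me3 peaks (proliferating) of SVZ NSC cultures were analysed, 1 list per library. Per the labels, the submitters' processing notes name Bowtie2 and the build mm9. Per the study's methods, the authors called peaks with MACS, for H3K27me3 with its model and its local lambda switched off. Version, threshold, H3K4me3 settings and how inputs entered are not given in the sources read. The deposited values are positions and the score the authors took from MACS for each peak. Lowest scores were near 50 and 47.1% of the H3K4me3 peaks held a score of 3100 or more. The depth is unknown, since no counts are given.

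Overlaps (pandas 2.3.3 and numpy 2.4.6 under Python 3.11.15, with scipy 1.17.1 for intervals) were tested on simulated data against a base-by-base count, and the 1871 members were also found by bedtools 2.31.1. The deposited positions were taken to follow the BED convention, which the lists do not state. Starts were therefore raised by 1 for printing, and widths are end minus deposited start. Where 2 H3K27me3 peaks met a member the wider was its host. Intervals are 95% Wilson intervals for shares and order-statistic intervals for medians. Figures were drawn with matplotlib 3.10.9.

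Groups follow the labels, with 1 library each, so no test was run. The members named were the 5 widest, the 5 under the widest proliferating hosts, the 5 with the highest H3K27me3 scores in both lists, the 3 longest runs and the 5 nearest the limit on each side, with 1 member per proliferating host where hosts were ranked; the fourth run and the 3 lowest and 3 highest width ratios were added after their values were seen. The members, lists and comparisons were chosen with earlier results of these data known, and the ranges of score and width and the comparison with peaks without H3K4me3 after the lists were seen. The planned gene lists were not used, since gene positions were at hand in GRCm38 only.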

Additional observations from a re-analysis of the deposited data

Results flagged for a closer look

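Outside chromosomes 1 to 19, which the rule does not use, H3K4me3 peaks also lay over H3K27me3 at both times. On chromosome X these were 16 of 610 (2.62%, 95% Wilson interval 1.62 to 4.22%), against 10.4% on chromosomes 1 to 19. On chromosome Y and the unplaced contigs they were 21 of 80 (26.2%, 17.9 to 36.8%). These peaks drew attention as signal in data the comparisons did not use. The difference from the other chromosomes was not tested, and the labels do not give the sex of the mice.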

How the results depend on the processing

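With 1 library per mark and time, depth unknown and inputs not used, no result has a check against variation between libraries. No paired analysis was possible because each list is a single library without a replicate number. Of 33 values under other settings, 21 stayed within 1.5 times the count or within the interval of the value and 12 moved; none changed direction. With the stronger 50% of each list the co-marked peaks numbered 195, against 1871 with the full lists. That fall was larger than the 50% cut in the H3K4me3 list, so the co-marked share was lower as well. With the stronger 50% of the H3K4me3 list alone, 254 remained, again a lower share. They had a median width of 2526.5 bp (2594 bp for peaks that met neither list), and 76.0% held a score of 3100 or more. This setting removes weak H3K4me3 peaks by construction. With at least 50% of the peak covered in each list, the median width was 1406.5 bp and 6.08% held that score. Merging H3K27me3 peaks less than 3 kb apart gave 69.7% and 82.6% wholly covered in proliferating cultures and at 30 h, a median width ratio of 1.61 and a wider 30 h host at 94.2%. Merging can only add to the coverage of a peak. With the 30 h list reduced to the number of the proliferating list, 76.0% were wholly covered at 30 h, the median ratio was 1.59 and 94.4% had a wider 30 h host. The reduced list keeps the highest scores, so weak 30 h peaks are removed by construction. Leaving out the array or including chromosome X, both added after seeing the data, left the values they were run on within these bounds. The cause of the other shifts was not tested.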

Other observations

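The difference in widening between H3K27me3 peaks over a co-marked peak and those without H3K4me3 was also computed with the 30 h list reduced to equal numbers, a comparison chosen after seeing the data. Keeping the highest 30 h scores removes weak 30 h peaks by construction, so this is not an independent check. The median ratio of 30 h to proliferating width was then 1.67 for 1553 peaks over a co-marked peak and 3.09 for 3673 without H3K4me3. With a proliferating score under 100 it was 2.21 and 3.98, and at 3100 or more it was 1.41 and 1.29, as with the full list.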
